A study of Homo sapiens with 8 samples.

Results

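The ERK output and AP-1 genes described here are 10 genes that respond to, restrain or carry out signalling through the kinases ERK1 and ERK2: FOS, FOSL1, JUN, EGR1, DUSP4, DUSP6, SPRY2, SPRY4, ETV4 and ETV5. They were named by symbol, with earlier results of these data known, and are 10 of the 23391 genes in the deposited count table. All 10 passed the filter on low counts, as did 13856 genes in all.

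RNA was sequenced from DU145, a human prostate cancer cell line, after stable transfection with either the empty vector pcDNA3.1-zeo (+) or the same vector carrying Esrrb, the orphan nuclear receptor estrogen related receptor beta. Both transfectants were kept in Zeocin at 150 μg/ml for 3 weeks and used as pools of resistant cells rather than single clones. Each of the 4 groups had 2 libraries: DU145-pc3.1 (vector, no DY131), DU145-Esrrb (Esrrb vector, no DY131), DU145-pc3.1+DY131 and DU145-Esrrb+DY131. The treated groups received 3 μM DY131, a synthetic ligand of Esrrb and of Esrrg, the estrogen related receptor gamma. All cells were grown to confluence and received charcoal-stripped serum, and the length of the DY131 treatment is not stated in the sources used here. The methods describe DY131 being given in medium to cells that were already confluent. No vehicle or matched change of medium is described for the untreated groups. An effect of DY131 therefore cannot be told apart from one of added time or fresh medium.

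The libraries held 7858743 to 11551690 reads on genes. ESRRB had 104 and 99 reads in the DU145-Esrrb libraries and 105 and 143 after DY131, against 3 and 0 in DU145-pc3.1 and 0 and 1 after DY131, so each library went with the label of its vector. These reads cannot check which libraries were treated with DY131. The 5 epithelial markers were present in every library (KRT8, KRT18, KRT19, EPCAM and CDH1, summed level 2503 to 3166 in cpm, which is reads scaled to 1000000 per library). The prostate luminal marker KLK3 was at 0 in 8 libraries and TMPRSS2, another, at no more than 0.130 cpm. Markers of other cell types were low in all 4 groups. The 4 leukocyte markers summed to 0.763 to 1.41 cpm in DU145-pc3.1, 1.10 in both DU145-Esrrb libraries, 0.298 to 0.467 in DU145-pc3.1+DY131 and 0.391 to 0.565 in DU145-Esrrb+DY131, with CD3E at 0 throughout. The 3 endothelial markers summed to at most 1.12 cpm and the 5 stromal markers to at most 6.07 cpm, nearly all of it COL1A1. The DU145-pc3.1+DY131 libraries differed from each other by the most, with a chi-square of 7.10 per degree of freedom where sampling noise alone gives 1, against 1.29 to 2.60 in the other groups. The heading that marks the DU145-Esrrb+DY131 libraries is the same for both, so they are called A and B and carry no replicate number.

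Growth factor receptors pass their signal through RAS, RAF and MEK to ERK, which phosphorylates ternary complex factors sitting with serum response factor on CArG boxes and so switches on immediate early genes within minutes. FOS and EGR1 are the classic genes of this kind. Their products are short-lived transcription factors, and FOS pairs with JUN proteins to form AP-1, while FOSL1 is a related subunit that sustained ERK activity stabilises and that is often abundant in carcinoma lines. A slower layer feeds back on the pathway: DUSP4 (nuclear) and DUSP6 (cytoplasmic) are phosphatases that remove the activating phosphates from ERK, Sprouty proteins (SPRY2 and SPRY4) dampen the signal between receptor and RAF, and the PEA3 factors ETV4 and ETV5 are ETS family proteins whose transcription follows fibroblast growth factor and ERK activity.

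The promoters of the 3 genes that moved by 2-fold or more with DY131 in the vector cells are shown because they are the windows in which a shared element would be looked for. Each is the 250 bases before a start of the gene in RefSeq (build GRCh38.p14), read 5′ to 3′ on the strand of the gene. Capitals mark matches to the motifs named below. The SPRY4 window lies inside the gene as annotated in GENCODE (chromosome 5, 142310427 to 142326455), so a start further upstream was not searched.

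FOS promoter, chr14:75278578-75278827, strand +: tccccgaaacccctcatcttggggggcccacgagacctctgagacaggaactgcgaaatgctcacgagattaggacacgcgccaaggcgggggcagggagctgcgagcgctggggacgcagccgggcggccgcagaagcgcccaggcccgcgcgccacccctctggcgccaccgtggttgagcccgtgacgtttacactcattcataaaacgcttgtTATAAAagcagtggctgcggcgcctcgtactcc

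EGR1 promoter, chr5:138465229-138465478, strand +: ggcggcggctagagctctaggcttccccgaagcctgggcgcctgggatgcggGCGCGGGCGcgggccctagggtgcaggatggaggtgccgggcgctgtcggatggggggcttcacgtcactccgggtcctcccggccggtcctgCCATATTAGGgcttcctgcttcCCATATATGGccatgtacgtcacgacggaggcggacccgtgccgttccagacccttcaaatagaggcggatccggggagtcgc

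SPRY4 promoter, chr5:142324248-142324497, strand -: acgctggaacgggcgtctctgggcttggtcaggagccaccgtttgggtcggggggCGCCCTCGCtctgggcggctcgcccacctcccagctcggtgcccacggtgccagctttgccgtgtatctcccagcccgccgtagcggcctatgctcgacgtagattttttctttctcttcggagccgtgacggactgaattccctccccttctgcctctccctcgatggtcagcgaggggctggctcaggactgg

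RefSeq promoter windows (250 bases before to 50 bases after the start) were matched for 6 of the 10 genes: FOS, EGR1, JUN, DUSP6, SPRY2 and SPRY4. They were searched on both strands for 8 motifs. The CArG box was found only in EGR1 among these 6, at 105 and 83 bases before the start, and in 1.29% of 35116 promoters of the same length. The TATA box TATAAA was found in FOS at 33 bases before the start (11.5% of all promoters). The EGR site GCGNGGGCG lay 198 bases before the start of EGR1, 195 before that of SPRY4, and 134 and 41 before 1 of the 3 RefSeq starts of SPRY2 (9.43% of all promoters). The core AAGGTCA of the element bound by estrogen related receptors matched once, 43 bases after the start of SPRY4 and so outside the stretch printed above (3.92% of all promoters). Its longer form TCAAGGTCA, which contains the core, matched in none of the 6 (0.353% of all promoters). The cyclic AMP response element TGACGTCA, the AP-1 site TGANTCA and the ETS site CCGGAAGT also matched in none of the 6 (1.85%, 7.71% and 4.14% of all promoters). These are matches of letters in a short window and not measured binding. A CArG box or other motif more than 250 bases before the start, in FOS or another of these genes, could not be found.

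The levels of the 10 genes in the untreated vector cells spanned a wide range once scaled by transcript length (cpm per kb, mean ± SD, n = 2). FOSL1 stood highest at 150 ± 15.2 cpm per kb, followed by EGR1 at 81.9 ± 1.08 and JUN at 37.8 ± 1.53. SPRY2 (18.9 ± 1.63), ETV5 (18.6 ± 2.20) and FOS (15.1 ± 4.79) came next, with libraries that overlapped from one gene to the next. DUSP6 (7.10 ± 0.51), ETV4 (5.90 ± 0.68), DUSP4 (3.93 ± 0.025) and SPRY4 (2.82 ± 0.47) were the lowest, and their libraries did not overlap. FOSL1 stayed first in all 4 groups. In DU145-Esrrb+DY131 the order had become FOSL1 (220), JUN (61.9), ETV5 (30.2), SPRY2 (21.0), EGR1 (12.4), ETV4 (8.90), DUSP6 (8.06), SPRY4 (7.57), DUSP4 (6.15) and FOS (1.72), with overlapping libraries for DUSP6 with SPRY4 and for SPRY4 with DUSP4. EGR1 thus went from rank 2 to rank 5 and FOS from rank 6 to rank 10.

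**Figure D1:**
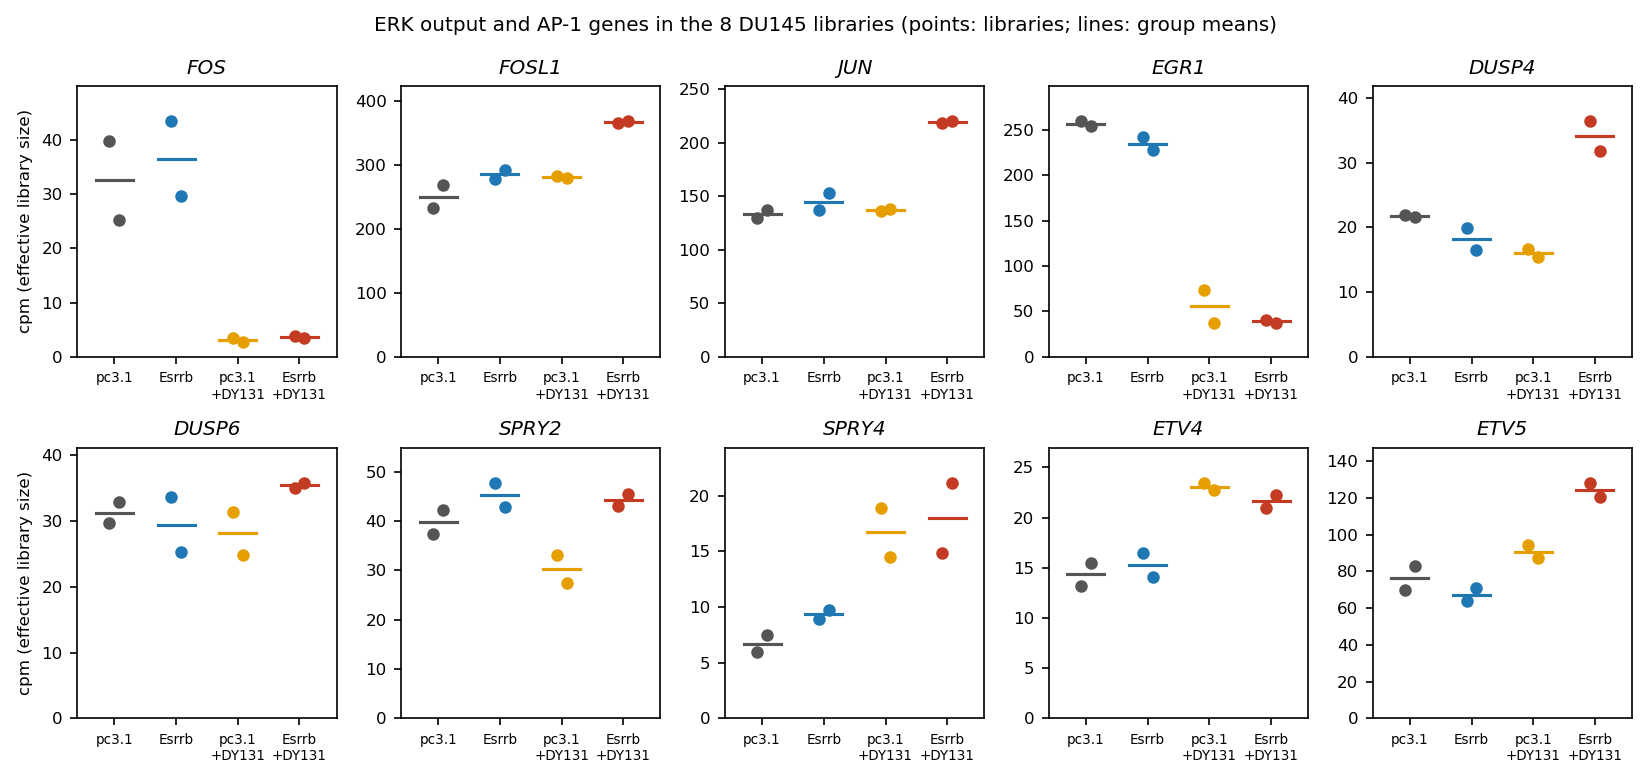
Level of each of the 10 genes in cpm (vertical axis, from 0) in the 4 groups, with points for the 2 libraries of a group and a line for their mean. FOS and EGR1 drop in both DY131 groups, whereas JUN, FOSL1, DUSP4 and ETV5 are highest in DU145-Esrrb+DY131.

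FOS and EGR1 fell with DY131 in both cell pools, and these were the largest changes among the 10 genes. FOS, the AP-1 subunit of the immediate early response, stood at 39.9 and 25.3 cpm in the DU145-pc3.1 libraries and 43.5 and 29.7 in DU145-Esrrb. After DY131 it stood at 3.55 and 2.78 cpm in the vector cells and 3.91 and 3.50 in the Esrrb cells, which is 28 to 38 reads per library. All 4 treated libraries lay far below all 4 untreated ones. In the vector cells the fall was 10.2-fold (log2 fold change -3.35, SE 0.27, adjusted p = 3.68e-07, edgeR's quasi-likelihood test), rank 9 from the most lowered of the 13856 genes tested. The fall in the Esrrb cells was 9.90-fold (-3.31, SE 0.27, adjusted p = 8.72e-08), rank 121 from the most lowered. In RNA from whole cultures, fewer cells that carry a transcript and less of it per cell cannot be told apart.

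EGR1, a zinc finger factor induced through the same ternary complex, stood at 259 and 254 cpm in DU145-pc3.1 and 242 and 227 in DU145-Esrrb. With DY131 its level was 73.8 and 37.2 cpm in the vector cells and 40.3 and 37.5 in the Esrrb cells. Again the treated and untreated libraries did not overlap, and the first DU145-pc3.1+DY131 library stood apart from the other 3 treated ones. EGR1 fell 4.61-fold in the vector cells (log2 fold change -2.20, SE 0.17, adjusted p = 2.46e-07) and 6.04-fold in the Esrrb cells (-2.59, SE 0.18, adjusted p = 1.82e-08). For FOS and EGR1 the difference in response between the pools did not pass the test. The interaction of DY131 with Esrrb, which is the log2 fold change in Esrrb cells less that in vector cells, was 0.04 for FOS (95% interval -0.92 to 1.00, adjusted p = 0.955) and -0.39 for EGR1 (95% interval -0.93 to 0.15, adjusted p = 0.252), so differences of nearly 2-fold in either direction were within the interval for FOS. The EGR1 interaction was 0.18 (adjusted p = 0.208) without the first DU145-pc3.1+DY131 library and -0.80 (adjusted p = 1.55e-07) without the second, and with no filter on low counts it was -0.39 (adjusted p = 1.93e-03).

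SPRY4, the Sprouty protein with the lowest starting level, moved the other way. It stood at 5.92 and 7.48 cpm in DU145-pc3.1 and at 18.9 and 14.5 after DY131, a rise of 2.48-fold (log2 fold change 1.31, SE 0.19, adjusted p = 8.07e-05). With Esrrb it went from 8.91 and 9.75 cpm to 14.9 and 21.1, a rise of 1.94-fold (0.96, SE 0.18, adjusted p = 3.61e-04) that exceeded 2-fold without DU145-Esrrb+DY131 library A (1.18) or without the second DU145-Esrrb library (1.02). In each pool both treated libraries lay above both untreated ones. The interaction was -0.35 (95% interval -0.93 to 0.22, adjusted p = 0.337).

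With a gene called when its adjusted p was under 0.05 and its change at least 2-fold, 3 of the 10 genes were called for DY131 in the vector cells (SPRY4 up, FOS and EGR1 down), where 4.19% of all tested genes were called, 1.02% up and 3.16% down. For the Esrrb cells 2 of the 10 were called, FOS and EGR1, both down, where the percentage over all genes was 12, and 9.04% were called down. By adjusted p alone, 3 of the 10 rose and 4 fell in the vector cells (37.4% of all genes passed, 18.9% up and 18.5% down). The same count in the Esrrb cells was 6 that rose and 2 that fell (58.7% of all genes, 29.2% up and 29.5% down). Treated and untreated libraries did not overlap for 8 of the 10 genes in the vector cells and for 9 in the Esrrb cells, a separation seen for 65.5% and 82.2% of all genes. The median log2 fold change of the 10 was -0.06 in the vector cells and 0.43 in the Esrrb cells, against a median of 0.00 over all tested genes in each.

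**Figure D2:**
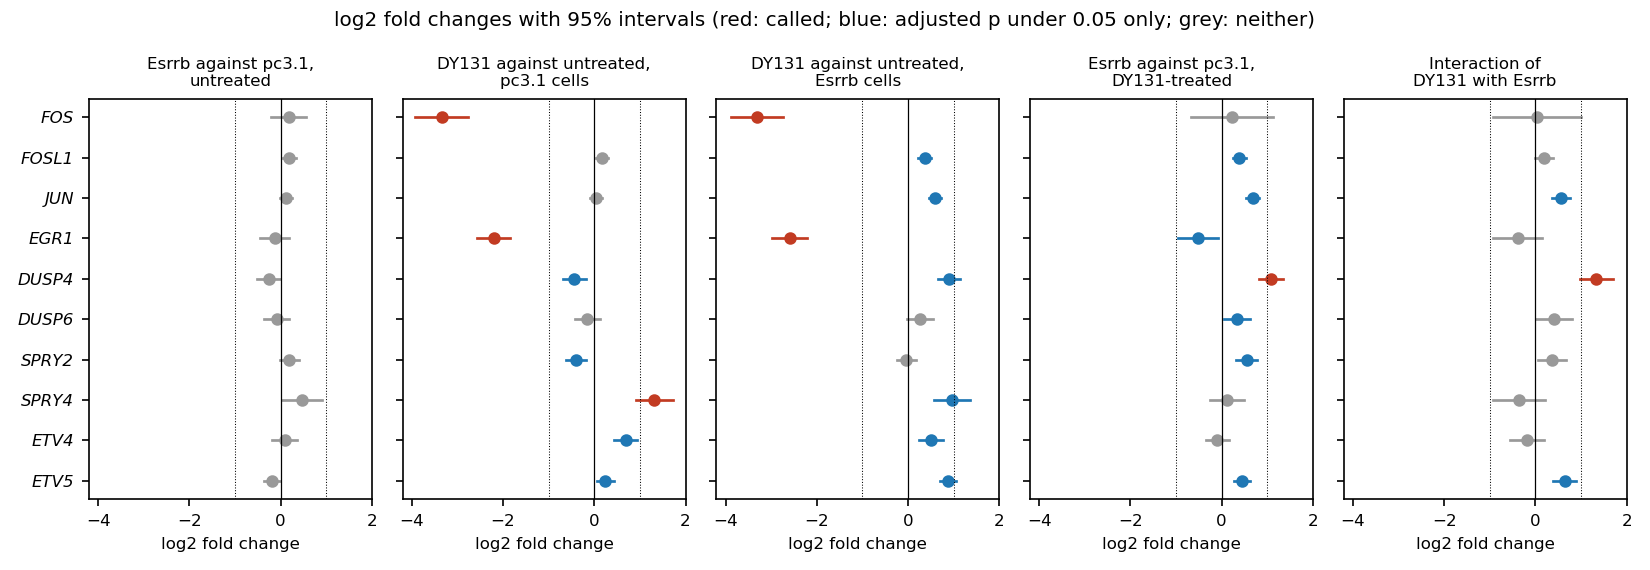
Fitted log2 fold change of each gene (points) with its 95% interval (lines) in the 5 comparisons, one per panel. Red marks an adjusted p under 0.05 with a change of at least 2-fold (dotted lines), blue an adjusted p under 0.05 alone and grey neither, and FOS and EGR1 in the DY131 panels sit far to the left of the other genes.

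FOSL1 and JUN did not fall with FOS. FOSL1 stood at 233 and 268 cpm in DU145-pc3.1 and 283 and 280 after DY131 (log2 fold change 0.17, SE 0.07, adjusted p = 0.0562), and the adjusted p was 0.0127 without the second DU145-pc3.1 library and 0.47 without the first. With Esrrb it rose from 278 and 293 cpm to 366 and 368 (0.36, SE 0.07, adjusted p = 2.08e-04), the treated libraries lying above the untreated ones in each pool. FOSL1 shares 3.64% of its 50-base windows with its pseudogene FOSL1P1. JUN, the partner that gives AP-1 much of its DNA binding, stood at 130 and 138 cpm in DU145-pc3.1 and 136 and 139 after DY131 (0.04, SE 0.06, adjusted p = 0.695). JUN rose in the Esrrb cells from 137 and 153 cpm to 219 and 220 (0.60, SE 0.06, adjusted p = 1.12e-06). The JUN libraries thus overlapped in the vector cells and were apart in the Esrrb cells. The interaction was 0.56 for JUN (SE 0.09, adjusted p = 2.52e-04) and 0.20 for FOSL1 (95% interval -0.00 to 0.39, adjusted p = 0.119). With a correction for the share of 50-base windows that cross an exon junction, of which the single-exon JUN has none, the JUN interaction was 0.21 (adjusted p = 0.108). The same correction gave rises in the Esrrb cells of 0.31 for JUN (adjusted p = 7.75e-04) and 0.23 for FOSL1 (adjusted p = 8.20e-03).

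The makeup of the AP-1 subunits was compared at the RNA level. As a share of the summed cpm per kb of FOS, FOSB, FOSL1 and FOSL2, FOS took 7.92% ± 2.94 (SD, n = 2) in DU145-pc3.1 and 0.727% ± 0.11 after DY131. With Esrrb its share was 7.94% ± 2.20 before and 0.680% ± 0.056 after DY131. FOSL1 made up most of the family throughout, at 77.9% ± 3.42 and 83.7% ± 0.74 in the vector cells without and with DY131 and 80.0% ± 2.09 and 87.0% ± 0.024 in the Esrrb cells. The summed level of the family was 193 ± 11 cpm per kb in DU145-pc3.1, 202 ± 3.05 after DY131, 214 ± 2.53 in DU145-Esrrb and 253 ± 1.26 after DY131, so the loss of FOS was small beside the family total.

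Among the JUN family transcripts, JUNB led in the untreated libraries and JUN in the treated ones. JUNB, a JUN protein that can oppose JUN on some promoters, stood at 101 and 97.8 cpm in DU145-pc3.1 and 44.8 and 49.0 after DY131 (log2 fold change -1.08, SE 0.08, adjusted p = 1.54e-07). It stood at 92.4 and 87.6 cpm in DU145-Esrrb and 39.2 and 45.4 after DY131 (-1.08, SE 0.08, adjusted p = 3.78e-08). As a share of the summed cpm per kb of JUN, JUNB and JUND, JUNB went from 43.8% ± 1.07 to 29% ± 0.57 in the vector cells and from 42.0% ± 1.98 to 21.7% ± 1.53 in the Esrrb cells. JUND, the third JUN protein, fell by 0.40 on the log2 scale in the vector cells (SE 0.08, adjusted p = 8.02e-04) and by 0.34 in the Esrrb cells (SE 0.08, adjusted p = 2.08e-03). The share of JUN went from 30.4% ± 1.12 to 43.6% ± 1.33 and from 34.8% ± 2.29 to 58.0% ± 1.64. The summed level went from 124 ± 0.44 to 88.9 ± 3.93 cpm per kb in the vector cells and from 118 ± 1.04 to 107 ± 3.58 in the Esrrb cells. Within a share, a fall of one member raises the others, and shares were not tested.

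**Figure D3:**
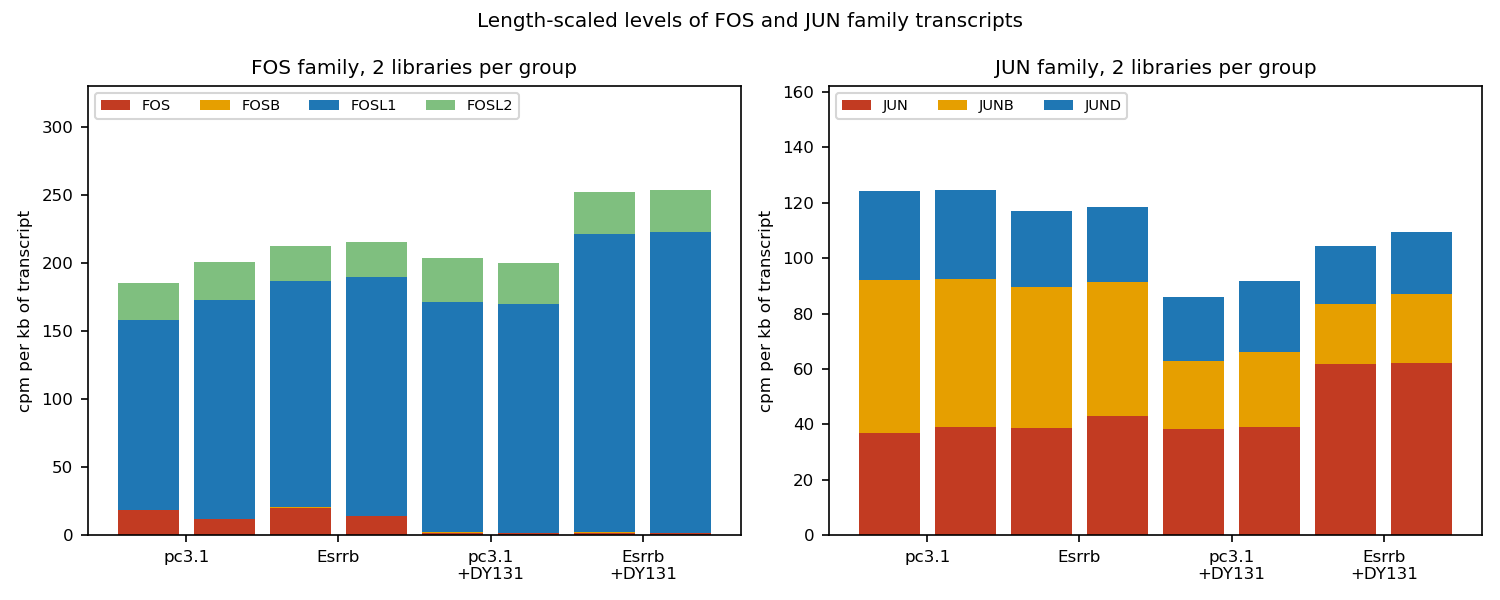
Stacked length-scaled levels (cpm per kb of transcript, from 0) of the FOS family (left) and the JUN family (right) in the 8 libraries, 2 bars per group. The FOS segment nearly disappears in the 4 DY131 libraries while FOSL1 fills most of each bar, and the JUNB segment is smaller in the DY131 libraries.

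Of the ERK phosphatases, DUSP4 moved in opposite directions in the pools. It stood at 21.9 and 21.7 cpm in DU145-pc3.1 and 16.7 and 15.4 after DY131, a fall of 0.44 on the log2 scale (SE 0.12, adjusted p = 0.0104). This fall had an adjusted p of 0.0565 with DESeq2 and 0.0588 without the first DU145-pc3.1 library. With Esrrb the level went up, from 19.9 and 16.5 cpm to 36.4 and 31.8, a rise of 0.90 (SE 0.12, adjusted p = 7.90e-06). This rise was 1.04 without the first DU145-Esrrb library and 0.64 with the exon junction correction (adjusted p = 2.34e-04). Both treated libraries lay below the untreated ones in the vector cells and above them in the Esrrb cells. The interaction was 1.34 (SE 0.17, 95% interval 0.98 to 1.69, adjusted p = 3.05e-05), the only one of the 10 that was called, where 6.28% of all genes were called, 1.54% with a positive value. With the exon junction correction it was 1.05 (adjusted p = 3.93e-04). DUSP6, the cytoplasmic phosphatase, stood at 29.7 and 32.8 cpm in DU145-pc3.1 and 31.4 and 24.9 after DY131 (-0.15, SE 0.13, adjusted p = 0.393). It stood at 33.6 and 25.3 in DU145-Esrrb and 35.1 and 35.8 after DY131 (0.26, SE 0.13, adjusted p = 0.0956), and its interaction of 0.41 (95% interval 0.02 to 0.81) had an adjusted p of 0.0974. With the exon junction correction the DUSP6 value in the Esrrb cells was 0.0028 (adjusted p = 0.988) and its interaction 0.12 (adjusted p = 0.691). DUSP6 thus passed the test for DY131 in neither pool. Leaving out the first DU145-pc3.1+DY131 library gave -0.32 in the vector cells (adjusted p = 0.0482), leaving out the first DU145-Esrrb library gave 0.49 in the Esrrb cells (adjusted p = 0.0123), and the interaction passed in both fits (0.58, adjusted p = 5.78e-03, and 0.64, adjusted p = 0.0208).

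SPRY2, the more abundant Sprouty gene, stood at 37.4 and 42.3 cpm in DU145-pc3.1 and fell by 0.40 on the log2 scale to 33.1 and 27.5 after DY131 (SE 0.10, adjusted p = 6.88e-03), while the value without the second DU145-pc3.1 library was -0.30 (adjusted p = 0.0910). The Esrrb cells held it at 47.8 and 42.9 cpm and at 43.2 and 45.4 after DY131, with overlapping libraries (log2 fold change -0.03, SE 0.10, adjusted p = 0.784). With the exon junction correction the latter value was -0.29 (adjusted p = 0.0216). The interaction was 0.36 (95% interval 0.06 to 0.66, adjusted p = 0.0634). SPRY2 and SPRY4 therefore took different directions in the vector cells, where both passed the test.

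The PEA3 factors rose with DY131 in both pools. ETV4 rose from 13.2 and 15.5 cpm to 23.5 and 22.7 in the vector cells (log2 fold change 0.68, SE 0.12, adjusted p = 4.22e-04) and from 16.5 and 14.1 to 21.0 and 22.3 in the Esrrb cells (0.50, SE 0.12, adjusted p = 2.77e-03). The ETV4 interaction was -0.18 (95% interval -0.55 to 0.19, adjusted p = 0.446). ETV5 rose from 70.0 and 82.9 cpm to 94.1 and 87.1 in the vector cells (0.24, SE 0.08, adjusted p = 0.0315) and from 63.8 and 70.8 to 128 and 120 in the Esrrb cells (0.88, SE 0.08, adjusted p = 3.87e-07). Treated libraries lay above untreated ones for both genes in both pools. The ETV5 value in the vector cells was 0.14 without the first DU145-pc3.1 library (adjusted p = 0.309), 0.20 without the first DU145-pc3.1+DY131 library (adjusted p = 0.0661) and had an adjusted p of 0.0625 with DESeq2. The interaction for ETV5 was 0.64 (SE 0.12, adjusted p = 7.85e-04) and 0.62 with the exon junction correction (adjusted p = 1.65e-03). ETV5 shares 2.86% of its windows with the neighbouring gene DGKG. By adjusted p alone, the interaction passed for 3 of the 10 genes, DUSP4, ETV5 and JUN, all positive (33.7% of all genes passed, 16.1% with a positive value).

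Expression of Esrrb without DY131 left all 10 genes under the threshold. None was called (0.577% of all genes were) and none passed by adjusted p alone in edgeR's quasi-likelihood test (4.18% of all genes), while 4 of the 10 had an unadjusted p under 0.05 (16.6% of all genes). DESeq2 also called none. FOSL1 (0.19) passed by adjusted p when the first or the second DU145-pc3.1+DY131 library was left out of the fit (0.0149 and 0.0178). The largest estimate was that of SPRY4, 0.47 (95% interval 0.03 to 0.91, adjusted p = 0.269). FOS had an estimate of 0.18 (95% interval -0.20 to 0.56, adjusted p = 0.686) and EGR1 of -0.13 (-0.45 to 0.19, adjusted p = 0.724). The libraries of the 2 pools did not overlap for 5 of the 10 genes, against 51.6% of all genes.

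Among DY131-treated cells, the Esrrb cells had more DUSP4 than the vector cells. The difference was 2.11-fold (log2 fold change 1.08, SE 0.12, adjusted p = 2.80e-06), and DUSP4 was the only one of the 10 called, where 8.21% of all genes were called, 2.15% higher in the Esrrb cells. The value was 0.98 without DU145-Esrrb+DY131 library A and 0.78 with the exon junction correction, both under 2-fold with an adjusted p under 0.05. By adjusted p alone, 6 of the 10 genes were higher in the Esrrb cells and 1 was lower (50.4% of all genes passed, 25.1% higher and 25.3% lower), and the libraries of the pools did not overlap for 7 of the 10 (72.7% of all genes). The higher ones were DUSP4, JUN (0.68, SE 0.06, adjusted p = 5.67e-07), SPRY2 (0.55, SE 0.10, adjusted p = 4.85e-04), ETV5 (0.45, SE 0.08, adjusted p = 3.06e-04), FOSL1 (0.38, SE 0.07, adjusted p = 1.97e-04) and DUSP6 (0.33, SE 0.13, adjusted p = 0.0496). With the exon junction correction JUN stood at 0.30 (adjusted p = 1.77e-03), ETV5 at 0.44 (adjusted p = 6.34e-04) and FOSL1 at 0.24 (adjusted p = 9.31e-03). SPRY2 then stood at 0.24 (adjusted p = 0.0854) and DUSP6 at 0.02 (adjusted p = 0.924), and DUSP6 also failed with DESeq2 (adjusted p = 0.113). EGR1 was lower by 0.52 on the log2 scale (adjusted p = 0.0428), with an adjusted p of 0.234 in DESeq2. That difference rested on the treated vector libraries, being 0.05 (adjusted p = 0.713) without the first and -0.93 (adjusted p = 3.39e-10) without the second. FOS (0.22, 95% interval -0.68 to 1.12, adjusted p = 0.697), SPRY4 (0.12, adjusted p = 0.598) and ETV4 (-0.09, adjusted p = 0.546) did not pass. This comparison and the DY131 comparisons share the treated libraries, so their values for a gene are not independent.

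Genes of the same pathway outside the 10 were taken from 5 lists. Their counts stand beside those over all tested genes, of which 18.9% rose and 18.5% fell by adjusted p and 4.19% were called in the vector cells, and 29.2% rose, 29.5% fell and 12% were called in the Esrrb cells. Of 28 other immediate early genes, 22 were tested. With DY131 in the vector cells 4 rose and 7 fell by adjusted p, and JUNB alone was called, a share of the 22 close to that over all genes. The Esrrb cells had 9 that rose and 8 that fell, and 2 were called, JUNB and NR4A1, an orphan nuclear receptor induced by growth factors. NR4A1 stood at 28.1 and 32.1 cpm in DU145-Esrrb and 14.6 and 14.4 after DY131 (log2 fold change -1.05, SE 0.19, adjusted p = 1.83e-04). It stood at 29.6 and 27.1 in DU145-pc3.1 and 23.9 and 13.4 after DY131 (-0.59, SE 0.17, adjusted p = 0.0137). Without the second DU145-Esrrb library the NR4A1 value was -0.96, and without DU145-Esrrb+DY131 library A the JUNB value was -0.99, both just under 2-fold. The median of the 22 was -0.22 in the vector cells and 0.06 in the Esrrb cells. A fall of the size seen for FOS and EGR1 was thus not shared by the tested genes of the list. FOSB, EGR2, EGR3, EGR4, IER3 and DUSP2 did not pass the filter on low counts, so a fall in them was not tested. None of the other 22 fell by more than 1.08 on the log2 scale in either pool.

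ATF3, a stress-induced AP-1 partner on the same list, fell in the vector cells, from 12.5 and 16.9 cpm to 10.8 and 7.44 (log2 fold change -0.68, SE 0.19, adjusted p = 0.0106), and rose in the Esrrb cells, from 11.3 and 8.92 to 17.5 and 15 (0.68, SE 0.19, adjusted p = 6.56e-03). Its interaction of 1.36 (SE 0.27, adjusted p = 1.34e-03) was the only one called on the list. Between the treated pools 2 genes of the list were called. KLF2, a zinc finger factor, was higher in the Esrrb cells, at 9.26 and 8.14 cpm against 3.18 and 4.56 (1.17, SE 0.21, adjusted p = 3.27e-04). CTGF, a secreted matrix protein, was lower, at 22.6 and 22.7 cpm against 58.5 and 35.8 (-1.06, SE 0.18, adjusted p = 1.64e-04). Without the first DU145-pc3.1+DY131 library, CTGF stood at -0.67 (adjusted p = 3.56e-05) and KLF2 at 0.91 (adjusted p = 1.90e-03), both under 2-fold.

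Of 18 other ERK feedback and output genes, 16 were tested, and those that passed mostly rose with DY131. In the vector cells 6 rose and 1 fell by adjusted p (18.9% and 18.5% of all genes), with 2 called (4.19%). With Esrrb 13 rose and none fell (29.2% and 29.5% of all genes), with 3 called (12%). The median log2 fold change was 0.14 and 0.33, against 0.00 over all genes in each. HBEGF, an EGF receptor ligand whose gene is itself switched on by ERK, went from 23.3 and 29.7 cpm to 82.4 and 59.3 in the vector cells (1.42, SE 0.13, adjusted p = 1.54e-06) and from 22.1 and 22.1 to 51.0 and 50.8 in the Esrrb cells (1.20, SE 0.14, adjusted p = 4.02e-06). DUSP7, another ERK phosphatase, went from 11.7 and 11.8 cpm to 23.8 and 24.1 (1.03, SE 0.12, adjusted p = 9.47e-06) and from 11.3 and 13.6 to 30.6 and 30.1 (1.29, SE 0.12, adjusted p = 2.19e-07). Both genes had treated libraries well above the untreated ones. EPHA4, a receptor tyrosine kinase, was called only for the Esrrb cells, from 2.38 and 1.93 cpm to 5.08 and 4.75 (1.18, SE 0.26, adjusted p = 1.30e-03), with an interaction of 1.23 (SE 0.37, adjusted p = 0.0175) that DESeq2 did not call (adjusted p = 0.127). Without the first DU145-pc3.1 library, the second DU145-Esrrb library or DU145-Esrrb+DY131 library A, the adjusted p of this interaction was 0.103, 0.0739 and 0.0617.

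**Figure D4:**
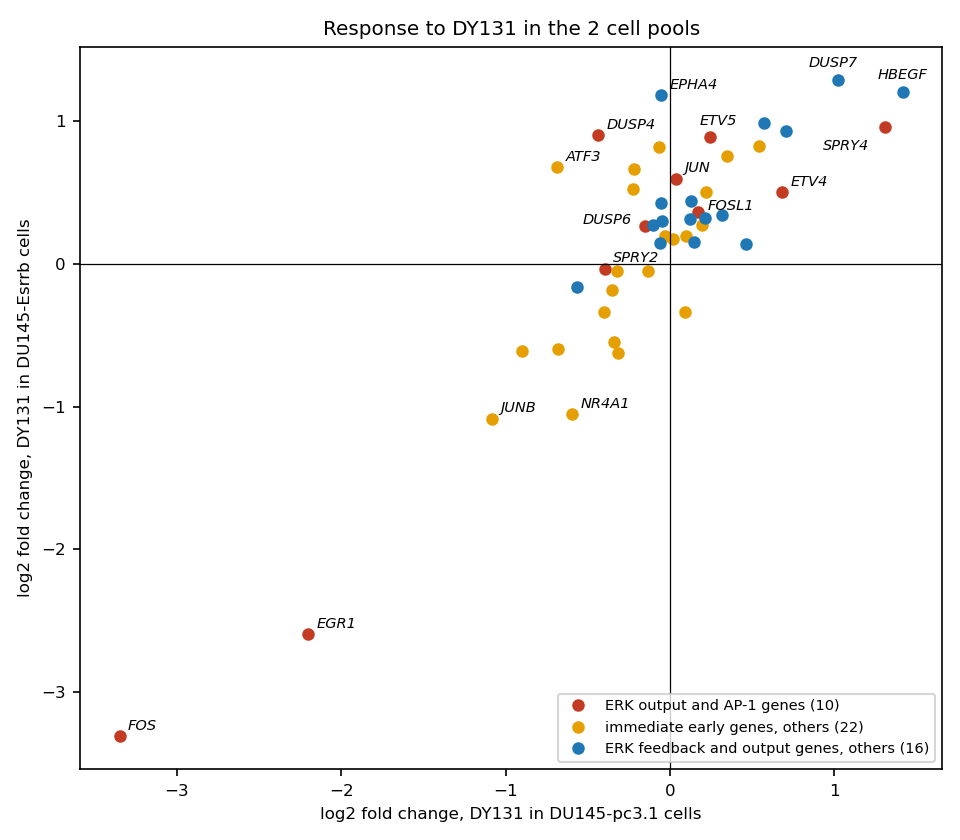
Log2 fold change with DY131 in DU145-pc3.1 cells (horizontal axis) against that in DU145-Esrrb cells (vertical axis), which share no library, for the 10 genes (red), 22 other immediate early genes (orange) and 16 other ERK feedback and output genes (blue). FOS and EGR1 lie farthest to the lower left, with JUNB and NR4A1 among the genes between them and the centre, HBEGF, DUSP7 and SPRY4 at the upper right, and DUSP4 and ATF3 at the upper left.

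Transcripts of the cascade itself, from the adaptor GRB2 to the ribosomal S6 kinases, moved in both directions. All 22 were tested and none was called in the vector cells, where 8 rose and 4 fell by adjusted p, within -0.57 to 0.65 on the log2 scale. With Esrrb 9 rose and 7 fell, within -0.95 to 1.19, and 1 was called. This was PEA15, a protein that holds ERK in the cytoplasm, at 147 and 161 cpm before and 351 and 351 after DY131 (1.19, SE 0.06, adjusted p = 9.94e-10). In the vector cells PEA15 rose from 157 and 167 cpm to 244 and 265 (0.65, SE 0.06, adjusted p = 2.52e-06), and its interaction was 0.54 (SE 0.09, adjusted p = 3.52e-04). Of those that fell, MAPK3, the gene of ERK1, and RPS6KA2, a ribosomal S6 kinase, were chosen after their values were seen. MAPK3 fell by 0.55 in the vector cells (SE 0.09, adjusted p = 2.18e-04) and by 0.82 in the Esrrb cells (SE 0.09, adjusted p = 2.28e-06). RPS6KA2 fell by 0.57 (SE 0.07, adjusted p = 9.91e-06) and by 0.95 (SE 0.07, adjusted p = 1.96e-08). RNA levels do not report on the phosphorylation of ERK, which was not measured.

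Of 14 ternary complex factors and AP-1 partners, 11 were tested. With DY131, 5 rose and 1 fell in the vector cells and 7 rose and 1 fell in the Esrrb cells by adjusted p. JDP2, which pairs with JUN proteins and represses AP-1 sites, was called in the vector cells, from 58.7 and 63.7 cpm to 31.9 and 28.8 (-1.01, SE 0.10, adjusted p = 1.78e-06), and its value was -0.95 without the second DU145-pc3.1 library and -0.94 without the second DU145-pc3.1+DY131 library. JDP2 in the Esrrb cells went from 53.2 and 60.1 to 46.5 and 39.8 (-0.40, SE 0.10, adjusted p = 2.27e-03). ETS1, an ETS factor that ERK phosphorylates, was called in the Esrrb cells, from 181 and 199 cpm to 410 and 395 (1.08, SE 0.06, adjusted p = 2.09e-09), and rose by 0.74 in the vector cells (SE 0.06, adjusted p = 5.50e-07).

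Of 11 genes often used as AP-1 targets, 8 were tested, and 3 rose and 1 fell in the vector cells and 4 rose and 2 fell in the Esrrb cells by adjusted p. The genes called moved in opposite directions. MMP1, the interstitial collagenase with an AP-1 site in its promoter, went from 4.24 and 3.95 cpm to 13.0 and 11.9 in the Esrrb cells (1.60, SE 0.27, adjusted p = 1.37e-04) and stood at 2.58 and 3.43 and, after DY131, 4.86 and 1.59 in the vector cells (0.11, SE 0.36, adjusted p = 0.836). Its interaction was 1.48 (SE 0.46, adjusted p = 0.0208). At these low counts the call depended on single libraries: the value was 0.91 without the second DU145-pc3.1+DY131 library and 2.5 without the first, and the adjusted p was 0.127 without the second DU145-pc3.1 library, 0.0590 without the second DU145-Esrrb library, and 0.0741 and 0.0549 without DU145-Esrrb+DY131 library A and B. IL6, a cytokine gene with AP-1 and NF-kB sites, went from 10.7 and 9.66 cpm to 3.78 and 2.15 in the Esrrb cells (-1.80, SE 0.22, adjusted p = 5.28e-06) and stood at 11.7 and 10.6 and, after DY131, 8.32 and 8.13 in the vector cells (-0.44, SE 0.17, adjusted p = 0.0550). The IL6 interaction was -1.37 (SE 0.29, adjusted p = 2.01e-03). Between the treated pools MMP1 was higher in the Esrrb cells by 1.93 (SE 0.29, adjusted p = 6.10e-05) and IL6 was lower (-1.49, SE 0.23, adjusted p = 7.85e-05). This MMP1 value was 2.94 without the first DU145-pc3.1+DY131 library and 1.35 without the second.

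Without DY131, none of the 79 tested genes of the 5 lists was called for Esrrb, and 8 passed by adjusted p alone (0.577% and 4.18% of all genes). An interaction of at least 2-fold was called for 4 of the 79 (6.28% of all genes), the ATF3, EPHA4, IL6 and MMP1 values given above.

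Among the genes whose pattern over the 8 libraries was closest to that of FOS, by the root mean square difference of centred log2 cpm, were MGC39372 (0.49) and EGR1 (0.54). MGC39372 stood at 1.38 to 1.78 cpm in the untreated and 0 to 0.226 in the treated libraries, within a few reads of 0 after DY131. The nearest genes to EGR1 were C11orf86 (0.29), KLHL32 (0.35) and PIPOX (0.38), also of low level, with C11orf86 at 3.13 to 5.92 cpm untreated and 0.565 to 1.12 treated. FOS ranked 28 by nearness to EGR1.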

How the data were processed

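RNA of the 8 libraries was sequenced as 50-base single reads in 1 lane. The authors used the FASTX-Toolkit for trimming and TopHat2 for mapping (hg18), and deposited raw, unnormalized counts per gene made with their own program MULTICOM-MAP. Rules for strand and for reads mapping to several genes are not given in the sources used here. Counts of 7858743 to 11551690 reads per library limit the precision, and the reads carry no molecular identifiers.

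From the counts, genes that reached 1 cpm in 2 or more libraries were fitted over all 4 groups in edgeR 4.0.16 (R 4.3.3, TMM factors, quasi-likelihood F test), with Benjamini-Hochberg adjustment over 13856 genes. Calls needed both an adjusted p under 0.05 and a change of 1 or more on the log2 scale. The SE is the absolute log2 fold change over the square root of F. The p-values measure the spread between libraries that the authors call biological replicates. The paper also describes pooling of replicates after transfection, so whether the libraries of a group come from separate transfections is not clear. If they do not, differences between transfections cannot be told apart from the effect of Esrrb. Every library's effective size scaled its cpm. Levels per kb used the GENCODE transcript (build GRCh38) matched by RefSeq identifier (22019 genes) or by symbol (722 genes), and 650 genes had no match. Motif searches used RefSeq promoters of GRCh38.p14. The fit was tested on simulated counts with known changes.

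The genes and the 5 pathway lists were chosen with earlier results of these data known. Besides the 10 genes and ESRRB, named genes were those called on a list (at most 6 per list and comparison) and the 3 nearest in pattern to FOS and to EGR1, the latter on log2 cpm with a prior count of 2. FOSB, FOSL2 and JUND were named as family members, and marker genes to check the cell type. EGR2, EGR3, EGR4, IER3 and DUSP2 were named as genes of a list that were not tested. A few genes that these rules name are not reported here. Alternatives were edgeR's exact test, DESeq2 1.42.0, other size factors and filters, only the libraries compared, an exon junction offset, a replicate block and leaving out each library.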

Additional observations from a re-analysis of the deposited data

Results flagged for a closer look

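In 3 of the 10 genes the response to DY131 differed between the 2 cell pools by the test of the interaction itself, with each value being the log2 fold change in DU145-Esrrb cells less that in DU145-pc3.1 cells. DUSP4 differed by 1.34 (adjusted p = 3.05e-05, edgeR's quasi-likelihood test), ETV5 by 0.64 (adjusted p = 7.85e-04) and JUN by 0.56 (adjusted p = 2.52e-04). The DUSP4 value came from a fall in the vector cells and a rise in the Esrrb cells, both past the test, while ETV5 rose in both pools and JUN passed the test in the Esrrb cells only. For JUN the interaction was 0.21 (adjusted p = 0.108) once the exon junction offset was added. Groups of 2 libraries are too small for a test of single outlying libraries.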

How the results depend on the processing

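For DY131 in the vector cells, FOS, EGR1 and SPRY4 stayed past both thresholds under every alternative run, FOS between -3.65 and -2.98, EGR1 between -2.78 and -1.80 and SPRY4 between 1.12 and 1.5 on the log2 scale. In the Esrrb cells FOS (-3.56 to -3.0) and EGR1 (-2.86 to -2.54) did so as well. Without the 2-fold threshold, 7 of the 10 genes passed for DY131 in the vector cells, 8 in the Esrrb cells, 7 for Esrrb among treated cells and 3 for the interaction, and over all genes the counts went from 580, 1666, 1137 and 870 to 5185, 8128, 6983 and 4674. For the tested genes of the 5 lists they went from 4, 9, 4 and 4 to 40, 60, 43 and 28. For Esrrb without DY131 the count over all genes was 80, and it was 579 without the fold threshold, 48 with DESeq2 and 46 to 126 without 1 library. A minimum of 10 counts in each library gave 43 there and 315, 1090 and 721 for DY131 in the vector cells, DY131 in the Esrrb cells and Esrrb among treated cells. Among treated cells the count of called genes of the 10 was 0 with the exon junction offset and ranged from 0 to 1 over the 8 fits that each left out 1 library.

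Direction changed only for values that had not passed the test, EGR1 among treated cells excepted. With the exon junction offset, the Esrrb effect among treated cells was -0.20 for SPRY4 and 0.11 for ETV4, and the interaction was -0.15 for FOS and 0.019 for ETV4. Over the fits without 1 library, the Esrrb effect without DY131 ranged from -0.13 to 0.54 for FOS, -0.31 to 0.11 for DUSP6 and -0.029 to 0.22 for ETV4. The DY131 effect ranged from -0.32 to 0.0046 for DUSP6 in the vector cells and from -0.11 to 0.044 for SPRY2 in the Esrrb cells. Among treated cells the range was -0.93 to 0.048 for EGR1 and -0.18 to 0.33 for SPRY4, and the interaction ranged from -0.33 to 0.35 for FOS and -0.80 to 0.18 for EGR1. The ends of both EGR1 ranges came from leaving out one or the other DU145-pc3.1+DY131 library. The list genes DUSP7, JDP2, JUNB, NR4A1, PEA15, ETS1, KLF2, CTGF, EPHA4 and MMP1 each lost a call under at least 1 alternative with the direction kept, most by a change just under 2-fold. The MMP1 interaction had an adjusted p of up to 0.127 without 1 library. The causes of these shifts were not tested.

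The replicate numbers only name the libraries, since deviations of same-numbered libraries had correlations of 0.09, 0.02 and -0.07. With the number as a replicate block in the 6 numbered libraries, 3 of the 10 genes were called for DY131 in the vector cells and 0 for Esrrb without DY131, and 542 and 66 of all genes. The same 6 libraries without the block, a setting added after the data were seen, gave 3, 0, 554 and 68. At 28 to 38 reads per treated library, the FOS interaction could not be resolved to better than about 2-fold.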
